A study of Homo sapiens with 6 samples.

Results

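The epidermal growth factor (EGF) receptor family and its ligands were followed across 6 RNA sequencing libraries of the triple-negative human breast cancer line MDA-MB-231. Members were the genes of a fixed list of 10 symbols, looked up among the 28979 gene IDs of the count tables, and all 10 were present. They are the receptors EGFR, ERBB2 and ERBB3, the ligands HBEGF, AREG, EREG, TGFA, NRG1 and EPGN, and the receptor inhibitor ERRFI1. The labels give 3 libraries as Ang and 3 as Con, and name no genotype, dose or time. According to the series design, cells of this line were given exosomes, small vesicles shed by cells, from hypertrophic or from normal cardiomyocytes, in a search for microRNA targets. Which of these Ang and Con stand for is not stated in the labels, so both are used as names. All libraries come from this single line, and separate cultures are not stated. The p-values here thus set the difference between Ang and Con against the spread among libraries of a group, and that spread may be technical.

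EGF family ligands are made as membrane-bound precursors, released by surface proteases such as ADAM17, and bind receptor tyrosine kinases that signal as dimers. ERBB2 has no known ligand of its own and acts as a dimer partner, while ERBB3 binds neuregulins but has little kinase activity, so each depends on its partner. EGFR is commonly abundant in triple-negative breast cancer, where it signals through the RAS-ERK and PI3K pathways, and ERRFI1 is a feedback inhibitor that binds the kinase domain.

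Because the series design names microRNA targets as its aim, the microRNA matches of the family are shown first. The 3′ untranslated regions of the members were searched, in the direction of the transcript alone, for the 7 letters complementary to the seed, bases 2 to 8, of 9 microRNAs that are known regulators of these receptors or are known from heart muscle or cardiac disease. Which microRNAs the vesicles held was not analysed here. The sequences below are a selection, 3 known regulators of the receptors and a microRNA of heart muscle, written 5′ to 3′ from RefSeq on GRCh38.p14, with the seed in capitals. Known targets are EGFR for miR-7-5p, ERBB2 and ERBB3 for miR-125b-5p, and ERBB3 for miR-205-5p. The 4 hold 13 of the family's 23 matches, while miR-146a-5p, also a known regulator of EGFR, with 4 matches, and miR-199a-5p, with 3, are not shown.
hsa-miR-7-5p: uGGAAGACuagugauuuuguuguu
hsa-miR-125b-5p: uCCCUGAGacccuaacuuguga
hsa-miR-205-5p: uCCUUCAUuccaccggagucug
hsa-miR-133a-3p: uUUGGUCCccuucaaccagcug

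Of these 13 matching stretches, those in the receptors, save 1 of EGFR to miR-205-5p, and the first of TGFA to miR-7-5p are written below from GENCODE release 29 on GRCh38, with the seed match in capitals and, where it follows the match, the A that lies opposite the first base of the microRNA. The letters searched were GTCTTCC for miR-7-5p, CTCAGGG for miR-125b-5p, ATGAAGG for miR-205-5p and GGACCAA for miR-133a-3p.
EGFR, miR-7-5p, plus strand, chr7:55206058-55206081: ggagcacaagccacaaGTCTTCCA
EGFR, miR-7-5p, plus strand, chr7:55206341-55206364: ttagactgacttgtttGTCTTCCA
EGFR, miR-7-5p, plus strand, chr7:55208336-55208359: gactccatccctgaagGTCTTCCt
TGFA, miR-7-5p, minus strand, chr2:70450080-70450103: ctaaggcttgggaaaaGTCTTCCA
ERBB2, miR-125b-5p, plus strand, chr17:39728065-39728088: gaagccctgatgtgtcCTCAGGGA
ERBB3, miR-125b-5p, plus strand, chr12:56102058-56102081: cctgctccctgtggcaCTCAGGGA
ERBB3, miR-205-5p, plus strand, chr12:56102326-56102349: aggcactcctggagatATGAAGGA
EGFR, miR-133a-3p, plus strand, chr7:55205651-55205674: actctttcgatacccaGGACCAAg
EGFR, miR-133a-3p, plus strand, chr7:55206467-55206490: ggattcatcagcatttGGACCAAt

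EGFR had the longest 3′ untranslated region of the family, 6011 bases, and the most matches, 9 to 5 of the 9 microRNAs. Its 3 matches to miR-7-5p compare with at least 1 in 33.8% of the 687 regions within 20% of its length, and its 2 matches to miR-133a-3p with at least 1 in 22.1% of them. TGFA, with 3579 bases, had 3 matches to miR-7-5p, a match found in 21.9% of 1403 regions of similar length. ERBB2 and ERBB3 shared a miR-125b-5p match, found in 8.48% of the 1085 regions near the length of ERBB2 and in 14.9% of the 1640 near that of ERBB3. For miR-205-5p the share was 8.90% near the length of ERBB3. HBEGF, with 1456 bases, AREG, with 269, and EPGN, with 670, had no match to any of the 9. Elsewhere in the family, the heart muscle microRNA miR-208a-3p had 1 match each in EREG and ERRFI1, found in 3.80% and 1.68% of regions near their lengths. In all, 7 of 10 members held 23 matches, the rest of them to miR-146a-5p (EGFR, NRG1, ERRFI1), miR-199a-5p (TGFA, NRG1), miR-205-5p (EGFR, TGFA) and miR-1-3p (EGFR), and miR-21-5p had none. The known regulators were searched because these receptors are their targets, so their matches could be foreseen and the shares are no test of them. A match is a description of letters and not a measured site.

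Depth was low to moderate, with 3482629 to 3961442 counts per Ang library and 3369212 to 5437190 per Con library. The line's own markers were present, with vimentin (VIM) at 1032 ± 49.6 CPM (counts per 1000000 counts of a library, TMM scaled) in Ang and 928 ± 152 in Con (SD, 3 libraries each), and all 10 mesenchymal markers passed the low-count filter. The hormone receptor genes were near 0, with 4 reads in Ang and 3 in Con for ESR1, and 0 in Ang and 1 in Con for PGR. They belong to a list of 12 luminal epithelial markers, of which 10 were among the gene IDs and 6 passed the filter. These summed to 1270 to 1397 CPM in Ang and 1214 to 1356 CPM in Con. KRT8 gave most of this, at 987 ± 11.1 CPM in Ang and 955 ± 130 CPM in Con, while CDH1 had 10 reads in Ang and 14 in Con. Of 12 cardiomyocyte markers 8 were among the gene IDs, with a sum of 213 to 257 CPM in Ang and 204 to 310.1 CPM in Con, of which TTN gave 229 ± 20.4 CPM in Ang and 258 ± 56.9 CPM in Con. Per kilobase of annotated exon, TTN had a mean of 2.05 CPM over the 6 libraries, against 190 CPM for VIM. NPPA had 89 reads in Ang and 135 in Con, while MYH6, MYL2 and RYR2 had at most 1 read in a group. Marker sums of fibroblasts were 5.20 to 6.75 CPM in Ang and 7.60 to 11.01 in Con, those of leukocytes 2.31 to 5.29 and 2.11 to 7.44, and those of endothelium 11.4 to 17.0 and 15.4 to 20.1. Con replicate 2 stood apart, with a chi-square per gene of 12.8 and 12.5 against the other Con libraries, where the pairs without it gave 3.60 to 6.79. In 250 pairs of a non-coding gene lying under a coding gene on the other strand, the non-coding gene had the higher counts per base in 88.8%, by a median ratio of 32.5. This ratio was 32.9 to 35.4 in Ang, and 23.2 in Con replicate 2 against 39.3 and 41.1 in the other Con libraries. How well the counts of a coding gene, members of the family included, measure its own RNA is therefore uncertain.

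MDA-MB-231 libraries held reads assigned to EGFR and ERBB2 in quantity, few to ERBB3 and almost none to ERBB4. Levels of members here and below are of assigned reads, and the strand uncertainty given above applies to them. EGFR, on chromosome 7 (55019021 to 55211628), had 181, 209 and 168 CPM in the Ang libraries, against 210.3, 205 and 156 CPM in the Con libraries. The libraries of both groups lay in 1 band. ERBB2, the dimer partner, on chromosome 17 (39687914 to 39730426), had 106, 117 and 85.8 CPM in Ang, against 128, 97.2 and 95.9 CPM in Con, again with the groups mixed. ERBB3, the neuregulin receptor, on chromosome 12 (56076799 to 56103505), had 9.68, 3.03 and 8.09 CPM in Ang, against 5.49, 5.07 and 1.89 CPM in Con. It rested on 73 reads in Ang and 62 in Con, and Ang replicate 2 fell among the Con values. ERBB4, the remaining receptor, had 0 reads in Ang and 1 in Con.

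Per length, as CPM per kilobase of annotated exon (RPKM), EGFR was the highest receptor at 14.9 ± 1.66 in Ang and 15.2 ± 2.40 in Con, and its level was above 90.1% of 15863 coding genes. ERBB2 had 9.996 ± 1.56 RPKM in Ang and 10.4 ± 1.75 in Con, above 85.3% of coding genes. ERBB3 had 0.767 ± 0.385 RPKM in Ang and 0.459 ± 0.218 in Con, above 31.2% of them. These places among coding genes are places of assigned counts, with the same strand uncertainty. EGFR thus made up 58.0% ± 1.77 of the summed receptor RPKM in Ang and 58.4% ± 3.22 in Con, and ERBB2 made up 38.9% ± 1.88 and 39.9% ± 3.61. The order of EGFR over ERBB2 held in 6 of 6 libraries but rests on the gene length: over the longest transcript instead of all annotated exons, ERBB2 had 21.3 and EGFR 19.2 as the mean RPKM of all libraries.

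Among the 6 listed ligands, AREG and HBEGF held most of the reads, and TGFA, NRG1 and EREG followed well below. NRG4, a ligand outside the list, had 698 reads and a mean of 5.67 RPKM, above TGFA with 381 reads and 3.02 RPKM. AREG encodes amphiregulin, a ligand of EGFR, on chromosome 4 (74445134 to 74455009), and had 59.3, 88.8 and 64.1 CPM in Ang, against 56.4, 47.7 and 55.4 CPM in Con. All Ang libraries lay above all Con libraries, as in 3.62% of all tested genes. The gap between Ang replicate 1 and Con replicate 1 was narrow. HBEGF encodes heparin-binding EGF-like growth factor, a ligand of EGFR and ERBB4, on chromosome 5 (140332843 to 140346631), and had 43.7, 59.8 and 61.5 CPM in Ang, against 32.5, 53.2 and 24.8 CPM in Con. Con replicate 2 lay within the Ang values, and the other Con libraries lay below all of them.

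TGFA, which encodes transforming growth factor alpha, an EGFR ligand, on chromosome 2 (70447280 to 70554193), had 17.9, 15.1 and 8.67 CPM in Ang, against 15.2, 19.3 and 13.8 CPM in Con. Ang replicate 3 was the lowest and Con replicate 2 the highest. NRG1, which encodes neuregulin 1, the ligand of ERBB3 and ERBB4, on chromosome 8 (31639386 to 32767959), had 13.2, 8.32 and 10.4 CPM in Ang, against 10.8, 16.1 and 8.18 CPM in Con, with the groups mixed. EREG, which encodes epiregulin, a ligand of EGFR and ERBB4, on chromosome 4 (74365143 to 74388751), had 3.81, 5.80 and 4.04 CPM in Ang, against 3.59, 4.73 and 3.77 CPM in Con. These are 50 reads in Ang and 57 in Con, and the groups overlapped.

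EPGN, which encodes epigen, a further EGFR ligand, on chromosome 4 (74308473 to 74315307), had 4 reads in Ang replicate 2 and 0 in each of the other 5 libraries, and was not tested. A count of 0 allows up to 3 reads, or 0.507 to 0.944 CPM in these libraries, for counting error alone. EPGN, EREG and AREG are neighbours on the same strand of chromosome 4, yet their mean levels over the 6 libraries were 0.0927, 0.751 and 37.6 RPKM. Of the ligands outside the list, EGF had 5 reads in Ang and 7 in Con, BTC 11 and 20, and NRG2 10 and 2, all below the filter. NRG4, whose product binds ERBB4, had 25.5, 23.2 and 24.8 CPM in Ang, against 29.4, 28.2 and 39.9 CPM in Con. All Ang libraries lay below all Con libraries, as in 4.54% of all tested genes. NRG4 had a log2 fold change of -0.40 ± 0.25 (SE) that was not called.

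ERRFI1, the feedback inhibitor also known as MIG6, on chromosome 1 (8004404 to 8026308), had 246, 256 and 276 CPM in Ang, against 185, 248 and 185 CPM in Con. As for HBEGF, Con replicate 2 lay within the Ang values and the other Con libraries lay below. ERRFI1 was the highest member per length, at 62.0 ± 3.61 RPKM in Ang and 49.2 ± 8.64 in Con, above 97.8% of coding genes.

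**Figure D1:**
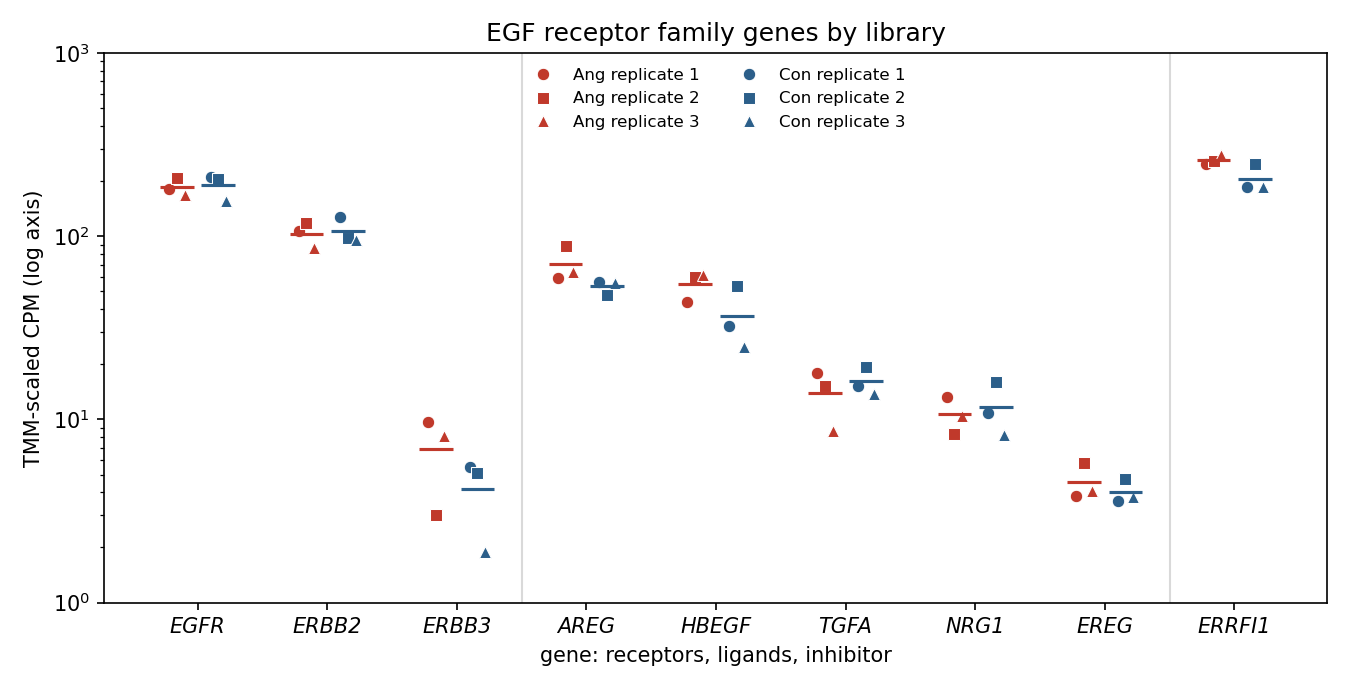
TMM-scaled CPM (log axis) of the 9 tested members, with 1 point per library and a line at each group's mean, Ang on the left of Con. Receptors, ligands and the inhibitor are parted by grey lines. AREG is the member whose 3 Ang libraries lie above all 3 Con libraries, and in HBEGF and ERRFI1 the square of Con replicate 2 sits beside the Ang points.

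In order of mean RPKM over the 6 libraries, the family ran ERRFI1 (55.6), AREG (37.6), HBEGF (15.2), EGFR (15.0), ERBB2 (10.2), TGFA (3.02), NRG1 (0.985), EREG (0.751), ERBB3 (0.613) and EPGN (0.0927). The ranges over the libraries did not overlap between AREG and HBEGF, EGFR and ERBB2, ERBB2 and TGFA, or TGFA and NRG1. Between EGFR and ERBB2 the gap was narrow, with 12.43 RPKM as the lowest EGFR value and 12.38 as the highest of ERBB2. HBEGF and EGFR did not differ beyond their spread, with HBEGF higher in 4 of 6 libraries. Ranges also overlapped between NRG1 and EREG, with NRG1 higher in 5 of 6 libraries, and between EREG and ERBB3, with EREG higher in 4 of 6. ERBB3, with 135 reads, was above EPGN, with 4, in 5 of 6 libraries. Their ranges overlapped through Ang replicate 2 alone, which held all reads of EPGN. The ranges of ERRFI1 and AREG overlapped too, though ERRFI1 was higher in 6 of 6 libraries. Of the listed ligands, AREG made up 64.9% ± 3.07 of the summed ligand RPKM in Ang and 65.6% ± 9.51 in Con, and HBEGF 27.8% ± 4.09 and 24.4% ± 8.12. The summed ligand level was 55.9, 79.0 and 62.7 RPKM in Ang, against 49.6, 52.7 and 46.0 in Con, without overlap. With NRG4 added it was 61.0, 83.6 and 67.6 RPKM in Ang, against 55.5, 58.3 and 53.9 in Con. Both sums are descriptions without a test, and AREG, the largest part of each, is a gene whose own groups did not overlap; of single tested genes, 3.62% lay wholly higher in Ang. For the receptors the sums were 25.8, 28.4 and 22.6 RPKM in Ang, against 29.8, 26.3 and 21.9 in Con, with overlap.

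**Figure D2:**
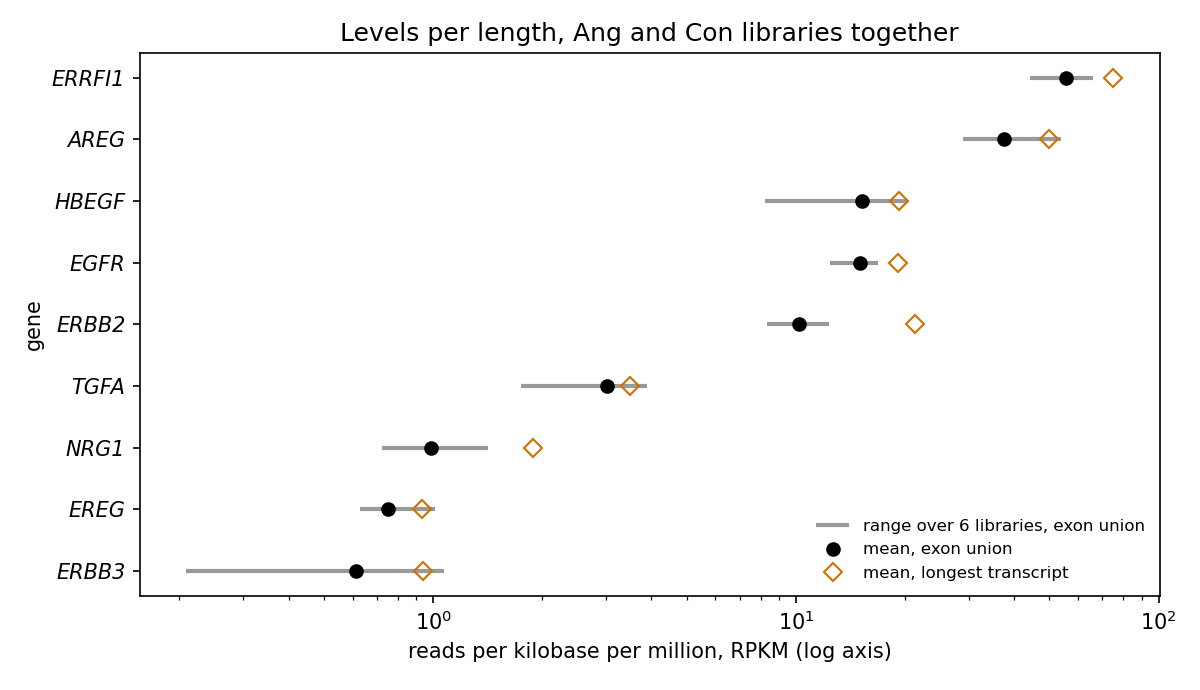
Level per length (RPKM, log axis) of the 9 tested members over all 6 libraries. Grey bars are ranges and black points means over the exon union, and open diamonds are means over the longest annotated transcript. With the longest transcript, ERBB2 (21.3) lies above HBEGF and EGFR, and ERBB3 and EREG lie close together.

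In no member did Ang and Con differ beyond the test's threshold. The largest values toward Ang among abundant members were in HBEGF, AREG and ERRFI1, while EGFR and ERBB2 lay near 0. The edgeR quasi-likelihood test over 14547 genes, with Benjamini-Hochberg adjustment and a threshold of 0.05, called 0 of the 9 tested members and 0 genes in all (0%), as DESeq2 and limma-voom did, and 2 members had an unadjusted p under 0.05 by edgeR. Of these 9, 5 had positive and 4 negative log2 fold changes, Ang minus Con, with a median of 0.17, against 49.2% positive and a median of -0.0064 over all tested genes.

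For the receptors the intervals were narrow where reads were many. EGFR had a log2 fold change of -0.035 ± 0.17 (SE), and its 95% confidence interval ran from 0.770 to 1.24 on the fold scale. ERBB2 had -0.052 ± 0.18, with an interval of 0.754 to 1.23. A change of 2-fold in either direction thus lay outside both intervals, which rest on the spread between libraries. ERBB3, with few reads, had 0.69 ± 0.53 and an interval of 0.785 to 3.33, which leaves room for a 2-fold difference. Leaving out 1 library gave 0.37 to 1.06 for ERBB3, the highest without Ang replicate 2.

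HBEGF had a log2 fold change of 0.56 ± 0.22, a fold of 1.47 with an interval of 1.09 to 1.99 (unadjusted p 0.0116, adjusted p 0.999 by edgeR). AREG had 0.42 ± 0.20, a fold of 1.34 with an interval of 1.02 to 1.75 (unadjusted p 0.0363, adjusted p 0.999 by edgeR). Without Ang replicate 2, its highest library, AREG had 0.22 ± 0.24, and leaving out 1 library gave 0.22 to 0.53. HBEGF had 0.35 without Con replicate 3. HBEGF and AREG are the 2 of 9 tested members under an unadjusted p of 0.05, both higher in Ang, where 3.4% of all tested genes fell in either direction and 1.42% with Ang higher. AREG was the 1 member of 9 whose groups did not overlap, as in 3.62% of all tested genes with Ang higher, and 0 of 9 lay wholly lower in Ang, against 4.54% of all tested genes. TGFA, at -0.22 ± 0.32, NRG1, at -0.16 ± 0.37, and EREG, at 0.17 ± 0.60, had intervals that include 1, and that of EREG reached 0.496 and 2.56.

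ERRFI1 had a log2 fold change of 0.33 ± 0.17, a fold of 1.26 with an interval of 0.994 to 1.59 (unadjusted p 0.0559, adjusted p 0.999 by edgeR). By DESeq2, limma-voom and edgeR with the replicate number as a block, ERRFI1 joined HBEGF and AREG under an unadjusted p of 0.05, which made 3 of 9 members in each, all 3 higher in Ang. The share of all genes under that p was 1.69% by DESeq2 (0.797% with Ang higher), over 28978 genes without the low-count filter. Over the 14547 genes that passed the filter, it was 3% by limma-voom (1.61%) and 3.95% with the block (1.95%). The DESeq2 share is therefore not on the same footing as the others or as the members, which passed the filter. No gene passed after adjustment in any of the 3. Between libraries of equal number, Ang was higher in 3 of 3 for ERRFI1, HBEGF, AREG and EREG, and in fewer for the other members. The labels state no such pairing, and the share of all genes was not counted. EREG rested on 50 reads in Ang and 57 in Con. In 7 of the 9 tested members the interval lay within 2-fold in both directions, with EREG and ERBB3 as the exceptions.

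HBEGF and ERRFI1 passed the threshold when Con replicate 2, the library that stood apart, was left out. HBEGF then had a log2 fold change of 0.93 ± 0.22 (edgeR adjusted p 0.0452) and ERRFI1 0.49 ± 0.12 (edgeR adjusted p 0.0487), in a fit that called 40 genes, 0.269% of those tested, 20 of them (0.135%) higher in Ang. Over 13 alternative fits the adjusted p of HBEGF ran from 0.0452 to 0.99997 and that of ERRFI1 from 0.0487 to 0.99997, and the log2 fold change was positive in 13 of 13 for both. Without Con replicate 2, AREG had 0.34 ± 0.19, EGFR 0.020 ± 0.13 and ERBB2 -0.12 ± 0.15, none of them called. Without Con replicate 1 no member was called, and 1 gene in all (0.00668%). Of the line's 10 mesenchymal markers, LOXL2 also passed without that library, at 0.60 (edgeR adjusted p 0.0452, in a range of 0.0452 to 0.99997 over 13 alternatives). LOXL2 had 142, 152 and 151 CPM in Ang, against 93.6, 174 and 103 CPM in Con, and the summed level of the 10 markers was 3664 to 3880 CPM in Ang and 2951 to 4097 CPM in Con. In HBEGF and ERRFI1 the high value of Con replicate 2 went with that library's larger total, lower strand ratio and high LOXL2, and the part of these in the result was not tested.

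**Figure D3:**
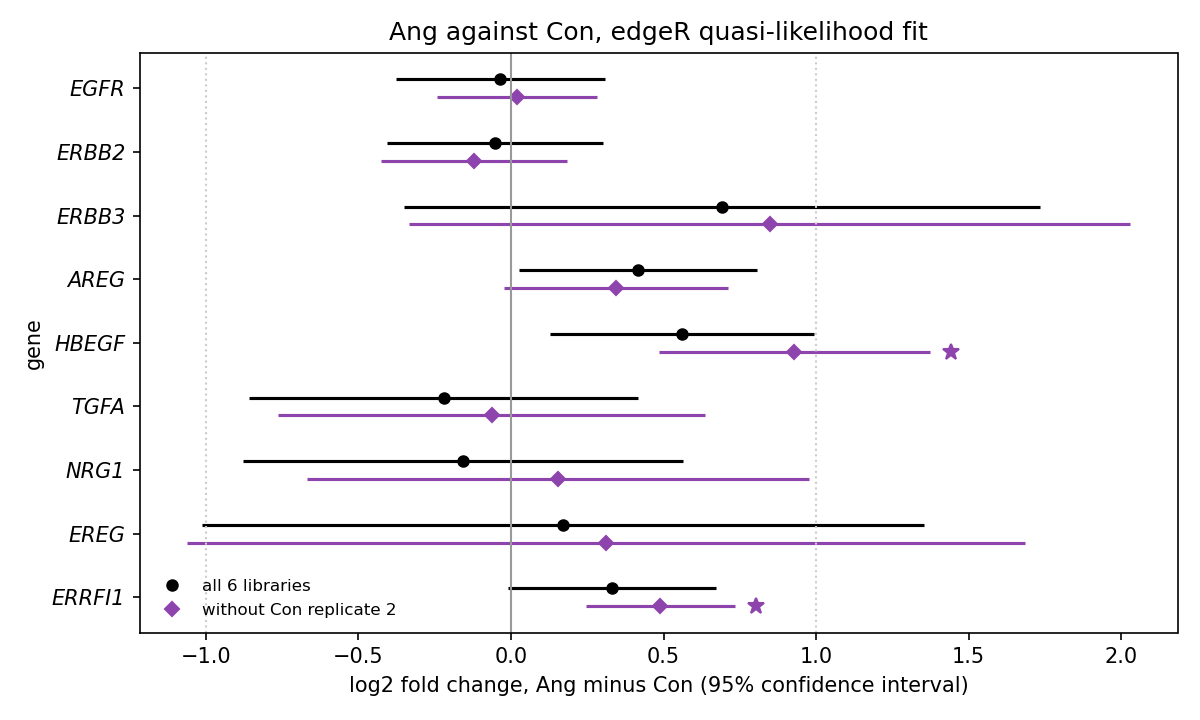
Log2 fold change of the 9 tested members, Ang minus Con, with 95% confidence intervals from edgeR, in all 6 libraries (black circles) and without Con replicate 2 (purple diamonds). Stars mark an adjusted p under 0.05, which HBEGF (0.93) and ERRFI1 (0.49) reach without that library, and dotted lines mark 2-fold changes.

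Genes on the other strand touch the exons of 3 members. EGFR-AS1, an antisense gene inside EGFR on chromosome 7 (55179750 to 55188934), shares 186 bases with EGFR exons. These are 1.49% of the exon bases of EGFR and 6.63% of those of EGFR-AS1. EGFR-AS1 had 229 ± 25.2 CPM in Ang and 196 ± 34.4 CPM in Con, and its RPKM was 4.33 to 6.72 times that of EGFR in the Ang libraries and 3.48 to 5.75 times in the Con libraries. Its log2 fold change was 0.22 ± 0.17 and was not called. With the counts of both added, EGFR had 0.10 ± 0.17, against -0.035 alone, and still was not called. Most exon bases of EGFR-AS1 lie outside EGFR exons, so this sum cannot show how the strand setting bears on EGFR. MIEN1 and PGAP3 share 5.53% and 1.88% of the exon bases of ERBB2. The shared bases are 24.9% of the exon bases of MIEN1 and 5.29% of those of PGAP3. MIEN1 had 15.2 ± 3.28 CPM in Ang and 15.6 ± 3.34 CPM in Con, and PGAP3 1.91 ± 1.42 and 1.54 ± 1.06 CPM. The RPKM of MIEN1 was 0.606 to 0.759 times that of ERBB2 in the Ang libraries and 0.432 to 0.877 times in the Con libraries. ENSG00000284747 shares 3.70% of the exon bases of ERRFI1 and had 6.99 ± 3.73 CPM in Ang and 6.18 ± 1.26 CPM in Con. Reads of a gene and of its antisense partner cannot be told apart without the strand setting of the counting.

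Around the family, genes that release its ligands, carry its signal, switch it off or respond to it were read from 5 lists. No gene of these lists was called in either direction. In the ligand release list 4 of 8 tested genes were positive, around a median of -0.0034. In it FRMD8, which encodes a binding partner of the iRhom proteins, had 1.43 ± 0.60 at 6.94 ± 5.10 CPM in Ang and 2.60 ± 0.756 CPM in Con, and RHBDF2, which encodes an iRhom that carries ADAM17 to the surface, had 0.56 ± 0.27 at 30.5 ± 6.32 and 20.4 ± 8.99 CPM.

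Among genes of receptor signalling 8 of 15 were positive, and the median was 0.073. PIK3CB, a catalytic subunit gene of PI3 kinase, had 0.81 ± 0.30 at 24.5 ± 8.79 CPM in Ang and 13.9 ± 2.21 CPM in Con, and SOS1, a RAS activator gene, had 0.46 ± 0.25. Among genes that attenuate the receptors 6 of 18 were positive, and the median was -0.19. Of these SOCS4, a ubiquitin ligase adaptor gene, had -0.64 ± 0.26 at 20.8 ± 6.45 CPM in Ang and 32.7 ± 6.76 CPM in Con, and DUSP5, a nuclear ERK phosphatase gene, had 0.33 ± 0.19. For receptor trafficking 10 of 18 were positive and the median was 0.022, with CD2AP, an endocytic adaptor gene, at -0.29 ± 0.18 and EPS15, a clathrin adaptor gene, at 0.24 ± 0.20. Their intervals lay within 2-fold for 18 of 18.

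Immediate early genes, which EGF induces in many cells, were positive in 9 of 12 tested genes of 16 listed, around a median of 0.11. Over all tested genes 49.2% were positive. The line's mesenchymal markers, which share FOSL1 with this list, were positive in 8 of 10, around a median of 0.17. PHLDA1 had 0.23 ± 0.17 at 363 ± 18.0 CPM in Ang and 309 ± 44.9 CPM in Con, and ATF3, a stress-induced transcription factor gene, had 0.42 ± 0.36. The 3 genes nearest to ERRFI1 in their pattern over the 6 libraries, among 3407 others of at least 50 CPM, were RBM6, ZFP36L1 and ACTG1. Their centred log2 CPM differed from that of ERRFI1 by a root mean square of 0.0575, 0.0650 and 0.0677, where the median gene differed by 0.301.

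**Figure D4:**
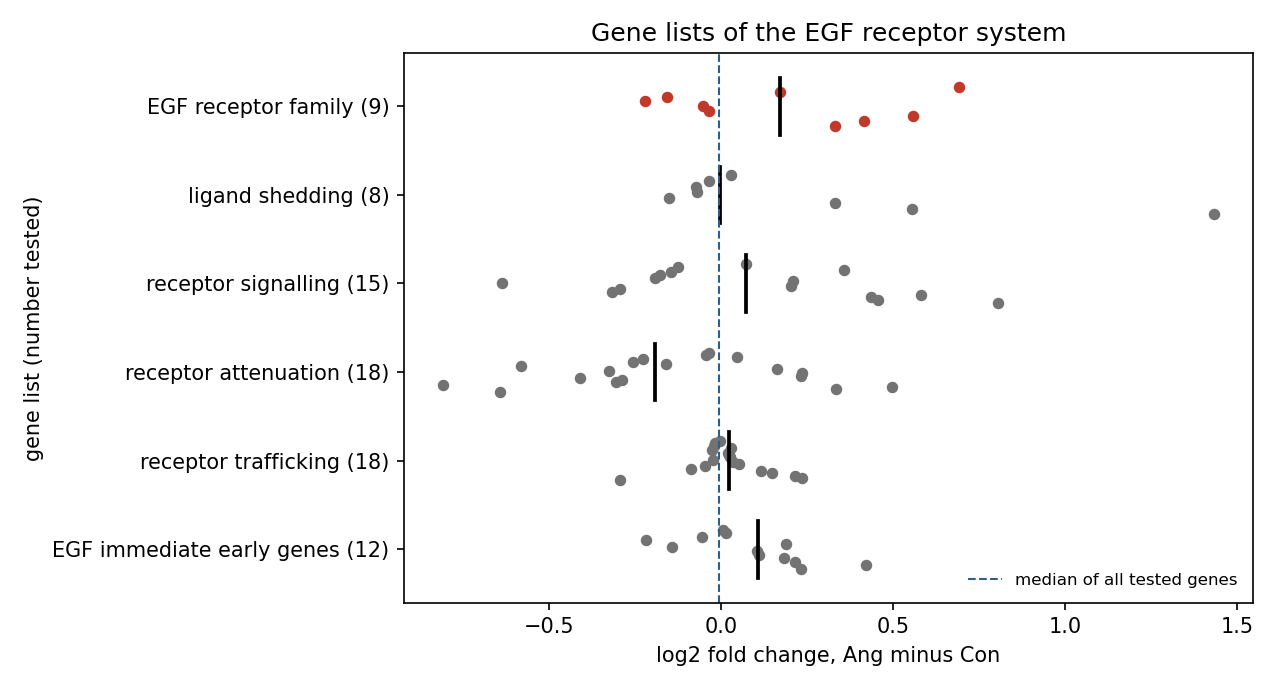
Log2 fold change, Ang minus Con, of each tested gene of the EGF receptor family (red) and of the 5 lists around it (grey), with the number tested in brackets. Black bars are list medians, from -0.19 for receptor attenuation to 0.17 for the family, and the dashed line is the median of all tested genes, -0.0064.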

How the data were processed

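The authors deposited raw counts of reads, as whole numbers keyed by Ensembl ID, in a table per library. Poly-T beads were used to select mRNA per the labels' protocols, which name no step that marks strand. Per the submitters' processing notes, HTSeq 0.9.1, DESeq 1.39.0 and build GRCh38 were used, while the sources used here give neither aligner nor strand setting. IDs were matched to symbols (28918) and to GENCODE release 29 (28192), which gave lengths and coordinates. The counts were fitted with edgeR 4.0.16 in R 4.3.3 (filterByExpr, TMM, robust quasi-likelihood), with DESeq2 1.42.0 and limma-voom (limma 3.58.1) as alternatives, and bedtools 2.31.1 for strand overlaps. The fits were also run on data simulated from mean levels and fitted spreads. Those data held neither a library that stood apart nor the strand uncertainty, so no result here rests on them. RPKM was computed here. Members, lists and microRNAs were chosen with earlier results of these data known. Named were all members, the 2 list genes with the smallest p, genes overlapping a member on the other strand, and the 3 genes nearest in pattern to the highest member. Libraries of equal number deviated together by 0.170, 0.346 and 0.179 (correlation over 3408 genes of at least 50 CPM) and by 0.0371, 0.0679 and 0.0357 over all tested genes, which leaves pairing unsettled.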

Additional observations from a re-analysis of the deposited data

How the results depend on the processing

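With limma-voom, DESeq2, RLE scaling, no low-count filter or a filter of 1 CPM in 3 libraries, 0 genes, 0 members and 0 genes of the EGF receptor lists were called. A replicate block gave 0 of each as well, with HBEGF at 0.60 ± 0.21 (edgeR adjusted p 0.897, in a range of 0.0452 to 0.99997 over alternatives). Leaving out 1 library gave 0 to 40 genes, 0 to 2 members and 0 genes of the EGF receptor lists; the marker LOXL2 was called without Con replicate 2. The 40 genes and 2 members came without Con replicate 2, and 1 gene, no member, came when Con replicate 1 was left out. The cause was not tested. Signs changed for uncalled members when 1 library was left out, with ranges of -0.16 to 0.038 for EGFR, -0.16 to 0.093 for ERBB2, -0.44 to 0.024 for TGFA, -0.35 to 0.15 for NRG1 and -0.043 to 0.31 for EREG. With antisense counts added, chosen after seeing the data, EGFR had 0.10. In the order of levels, 5 of 10 members kept their place with the longest transcript length, by construction of the lengths, and 8 to 10 when 1 library was left out. Of 117 values of members under alternatives, 106 kept sign and side of the threshold. Low counts limit EREG, ERBB3 and EPGN most.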
